A study of Mus musculus with 4 samples.

Results

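The regions described here are the stretches of the mouse genome that lay outside every TAD in 2D-cultured AML12 cells but inside a TAD in 3D-cultured cells. They were found on the 19 autosomes by cutting each chromosome, from its first TAD start to its last TAD end in either list, into bins of 40 kb. Adjacent bins that lay in no 2D TAD but in a 3D TAD were joined, so the members were chosen by the TAD positions of both lists. This gave 906 stretches, out of 3842 runs of bins that shared one state in both lists. The stretches held 2661 of the 59915 bins, which is 106.4 Mb or 4.44% of the span of 2397 Mb. AML12 is an immortalized hepatocyte line from mice that carry a transgene for transforming growth factor alpha. In situ Hi-C libraries were made from 2 replicates in 2D, where cells grew in dishes, and 2 in 3D, where cells were embedded in Matrigel, a gel of basement membrane proteins. All 4 samples were held at the G1/S boundary with 1 mM hydroxyurea, for 24 h in 2D and 36 h in 3D, so the culture and the length of exposure cannot be told apart. The authors combined the replicates before calling TADs, so each culture has 1 list, with 4221 autosomal TADs in 2D and 4094 in 3D. There is therefore no spread between replicates, and no p-value was computed, since regions are not replicates of a culture. All intervals below are 95% intervals, Wilson for shares, exact Poisson for densities and order-statistic for medians, and they cover counting error only. The lists hold positions alone. They do not give the number of contacts that supports a TAD, so its depth is unknown, and the hepatocyte identity of the cells could not be checked against marker genes. By the study's read statistics the 3D map held fewer valid read pairs than the 2D map. The authors scaled the contacts of each chromosome to one depth, and the part that depth played in the stretches was not tested.

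A TAD is a block of chromatin whose sequences contact each other more often than they contact their surroundings. Cohesin extrudes loops of chromatin until it meets CTCF bound to DNA, and many TAD borders lie at such sites and at active, gene-dense chromatin. TADs matter for gene control because an enhancer mostly acts on promoters in the same block. A domain caller such as Armatus divides a contact map into the blocks that score best and may leave sequence between them that belongs to none. In the stretches, the 2 cultures differ in exactly this assignment, which is what the choice of the regions used and is not itself a result. The authors estimate the highest resolution of both maps at 40 kb, the size of a bin here. They report that most TAD borders of the 2 cultures overlapped at that resolution.

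Liver genes that start in a stretch are shown first by their promoters, because they are sequence that lay outside TADs only in 2D. The windows are those of RefSeq on GRCm38.p6, with 250 bases before and 50 bases after the start, on the strand of the gene. Genes were placed by their GENCODE start, and the windows of Slc37a4 and Slc29a1 lie at another start of the gene in the same stretch. The windows were searched on both strands for the core of the CTCF motif, which is CCA, any 2 bases, AG, any 2 bases and GGC. Of the 82 list genes with a window inside a stretch, 4 with a match are shown. Over all autosomal windows, 775 of 31228 had one, a background of 2.48%, and in the stretches the share was 86 of 2805 windows, 3.07% (interval 2.49 to 3.77%), with the background just below the lower limit. Windows inside TADs of both lists had 2.45% (2.27 to 2.66%), those outside TADs in both cultures 2.41% (1.93 to 3.02%) and those outside TADs only in 3D 1.76% (1.11 to 2.76%), and each of these intervals overlapped that of the stretches. The 4 windows are Aox3, an aldehyde oxidase, at chr1:58112886-58113185 on the plus strand, Slc37a4, the transporter of glucose 6-phosphate into the endoplasmic reticulum, at chr9:44398104-44398403 on the plus strand, Lpin1, a phosphatidate phosphatase, at chr12:16610917-16611216 on the minus strand, and Slc29a1, a nucleoside transporter, at chr17:45593600-45593899 on the minus strand. Capitals mark the motif, which begins at base 102, 207, 247 and 76 of the windows, in that order, and reads along the gene only in Slc37a4. A match is a run of letters and was not shown to be bound.
Aox3: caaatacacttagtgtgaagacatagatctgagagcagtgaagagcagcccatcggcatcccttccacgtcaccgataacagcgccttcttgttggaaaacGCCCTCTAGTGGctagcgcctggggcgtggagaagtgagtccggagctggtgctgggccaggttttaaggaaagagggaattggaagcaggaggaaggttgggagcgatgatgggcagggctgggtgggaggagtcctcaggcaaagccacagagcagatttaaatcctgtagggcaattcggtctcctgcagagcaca
Slc37a4: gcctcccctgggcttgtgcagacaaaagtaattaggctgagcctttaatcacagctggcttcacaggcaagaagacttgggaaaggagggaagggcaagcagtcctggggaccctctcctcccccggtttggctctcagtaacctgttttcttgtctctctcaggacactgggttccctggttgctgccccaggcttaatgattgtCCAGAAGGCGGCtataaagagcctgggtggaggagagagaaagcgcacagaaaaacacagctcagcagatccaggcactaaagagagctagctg
Lpin1: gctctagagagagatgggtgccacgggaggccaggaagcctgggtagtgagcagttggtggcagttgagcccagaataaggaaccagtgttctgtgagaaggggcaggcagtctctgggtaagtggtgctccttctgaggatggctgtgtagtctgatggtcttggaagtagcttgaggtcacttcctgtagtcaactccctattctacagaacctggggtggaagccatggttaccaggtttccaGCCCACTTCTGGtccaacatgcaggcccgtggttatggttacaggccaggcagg
Slc29a1: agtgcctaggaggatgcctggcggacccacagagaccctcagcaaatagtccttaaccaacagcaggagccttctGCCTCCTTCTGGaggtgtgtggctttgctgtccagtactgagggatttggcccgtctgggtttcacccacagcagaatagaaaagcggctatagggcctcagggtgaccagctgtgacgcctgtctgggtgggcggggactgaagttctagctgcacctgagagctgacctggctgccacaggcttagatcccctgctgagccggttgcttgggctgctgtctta
In Aox3 the match lies upstream of the start in a window with 10 CpG dinucleotides, and in Lpin1 it spans the start in a window with 2.

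The stretches were short. The shortest measured 40 kb and the longest 480 kb, their median was 80 kb, the quartiles lay at 80 and 160 kb, and the mean was 117.5 ± 71.5 kb (SD over 906 stretches). The commonest length was 80 kb, with 486 stretches (53.6%), and 195 measured 160 kb. Stretches of 1 bin of 40 kb, the least that the rule admits, numbered 89. An even number of bins was found in 773 of the 906 (85.3%). In the 2D list, 1443 intervals of the span lay outside TADs, and 864 of them (59.9%) held at least 1 stretch. A stretch took up the whole of its 2D interval in 608 cases (67.1%, interval 64.0 to 70.1%), so that there the 3D list left nothing unassigned, and a part of it in the other 298. In those 608 cases the length is that of the 2D interval by construction. The part that the lengths of the 2D intervals played in the even numbers of bins was not tested. On both sides, 606 stretches touched a 2D TAD directly, while 278 did so on one side and 22 on neither.

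**Figure D1:**
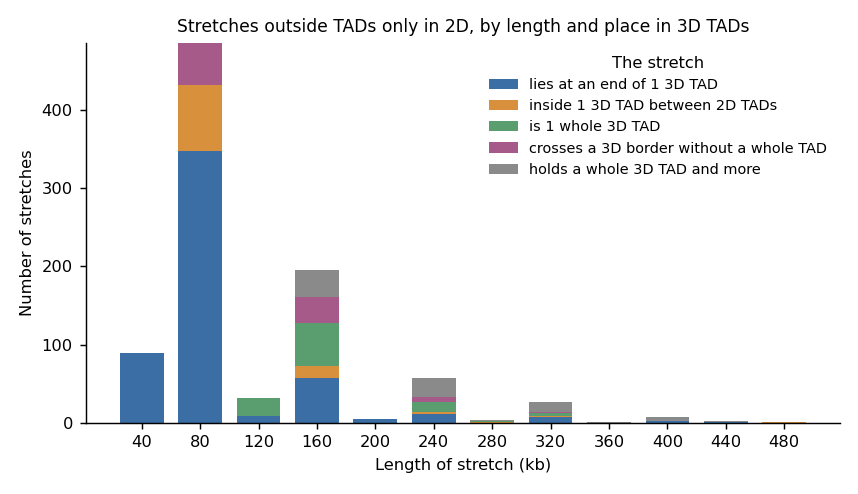
Number of stretches outside TADs only in 2D (vertical axis) by length in kb (horizontal axis), with the colours giving the place of the stretch in the 3D TADs. Stretches of 80 kb are the most frequent at 486, all 89 stretches of 40 kb lie at an end of 1 3D TAD, and longer stretches more often hold whole 3D TADs. The shortest 3D TAD measures 120 kb, so by construction a shorter stretch cannot hold one.

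In the 3D list, the commonest place of a stretch was the end of 1 TAD, in 529 of 906 cases (58.4%, interval 55.2 to 61.6%). Such a stretch had a 3D border on one side only. In 211 of these 529 cases the rest of the 3D TAD was exactly 1 TAD of the 2D list, so that the 3D TAD equalled a 2D TAD lengthened by the stretch, and in 28 further cases the rest was made up exactly of several 2D TADs (2 in 21 cases and at least 3 in 7). In the remaining 290 cases the rest held other bins or 2D TADs that were cut. A second kind, 106 stretches (11.7%), lay inside 1 3D TAD that went on to both sides, so that 2D TADs, or parts of them, lay on either side within the same 3D TAD. A further kind, 97 stretches (10.7%), was identical to 1 whole 3D TAD. Another 80 held at least 1 whole 3D TAD together with part or all of another, and 94 crossed a 3D border without holding a whole TAD. Within the stretches lay 196 whole 3D TADs, no base of which belonged to a TAD in 2D.

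The 3D TADs that covered the stretches numbered 990, which is 24.2% of the 4094 autosomal 3D TADs. The smallest was 120 kb and the largest 5280 kb. Their median size was 240 kb, as were both limits of its interval, and the middle of the distribution reached from 160 to 360 kb (quartiles). The 3104 3D TADs that held no stretch bin had a median of 280 kb, with quartiles at 160 and 600 kb. Sizes above 800 kb made up 8.69% of the covering TADs and 19.2% of the others. A large TAD has more bins that could belong to a stretch, so the 2 distributions are given as they stand, with no test. Of the covering TADs, 196 lay wholly inside a stretch, and since such a TAD can be no longer than its stretch, their size was limited by construction. They had a median of 160 kb and a maximum of 360 kb, and 171 of them measured at most 200 kb. The 794 that were only partly stretch had a median of 280 kb and a mean of 464.5 ± 600.8 kb (SD), and the stretch took up a median of 28.6% of their length. In 581 of the 990 covering TADs the stretch took up less than 50%. Of these 990, 92 met more than 1 stretch, and the most in a single TAD was 3. On the 2D side, the 1332 TADs directly beside a stretch had a median of 200 kb, against 240 kb for the other 2889.

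**Figure D2:**
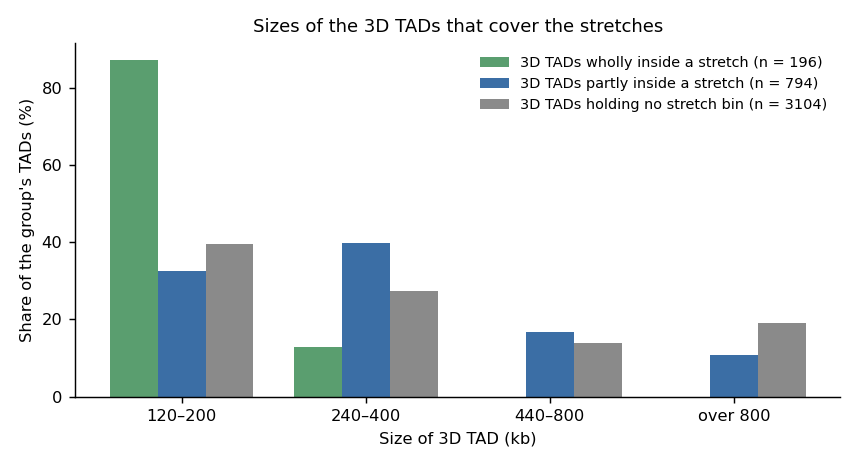
Share of 3D TADs (vertical axis, %) in 4 size classes (horizontal axis, kb) for TADs wholly inside a stretch, partly inside a stretch, and holding no stretch bin. Of the TADs wholly inside a stretch, whose size the stretch limits, 87.2% measure 120 to 200 kb, and TADs over 800 kb make up 10.8% of those partly inside and 19.2% of those holding no stretch bin.

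The stretches were dense in genes. They held the starts of 2191 of the 20705 protein-coding genes of the span, so that 10.6% of all genes began in 4.44% of the sequence. This is 20.6 gene starts per Mb (interval 19.7 to 21.5), against 7.22 per Mb (7.11 to 7.34) in bins inside TADs of both lists, a ratio of 2.85. A gene start lay in 1362 of the 2661 stretch bins (51.2%, interval 49.3 to 53.1%) and in 20.96% of the bins inside TADs of both lists, beside 24.3% of all bins. The other sequence that a list left unassigned was dense as well, with 17.4 starts per Mb (16.2 to 18.6) in the 431 stretches outside TADs only in 3D and 19.3 (18.50 to 20.04) in the 857 outside TADs in both cultures. The density was thus shared with unassigned sequence of either culture. By place, stretches that held a whole 3D TAD and more had 26.8 starts per Mb (24.5 to 29.2), those that crossed a 3D border 24.9 (22.1 to 27.99) and those identical to 1 3D TAD 22.4 (20.1 to 24.8), and these 3 intervals overlapped. Stretches at an end of a TAD had 18.4 (17.2 to 19.7) and those between 2D TADs inside 1 3D TAD 12.6 (10.6 to 14.9), each with an interval below those of the other places named before it. Counted by stretch, 712 of the 906 (78.6%, interval 75.8 to 81.1%) held at least 1 protein-coding gene start. There was 1 start in 252 of them, 2 to 4 in 340 and 5 or more in 120, and these 120 held 1008 of the 2191 starts (46.0%). Of the 194 stretches without such a start, 79 held no annotated gene start of any type.

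The sequence around the stretches was gene-dense too. The 1810 bins at 40 kb from a stretch, not all of which lay in 2D TADs, had 20.3 starts per Mb (19.3 to 21.4). This was the same within the intervals as the stretches themselves. At 80 kb the density was 15.2 (14.3 to 16.1), and at 600 kb it was still 13.2 (12.4 to 14.1). The 1490 bins of 2D TADs that directly touched a stretch had 19.7 starts per Mb (18.6 to 20.8). Within the 794 3D TADs that were partly stretch, the stretch bins had 19.1 starts per Mb (18.2 to 20.2) and the other bins of the same TADs 10.1 (9.73 to 10.5), a ratio of 1.90. Taken TAD by TAD, however, the stretch part was the denser one in 382 of the 794, the other part in 343, and they were equal in 69, so that the ratio over pooled bins was not a property of each TAD. In each of the 4 size classes of 3D TAD the stretch bins were the denser. In 3D TADs of 120 to 200 kb, the stretch bins had 23.9 starts per Mb (22.5 to 25.4) and the bins inside TADs of both lists 19.2 (18.6 to 19.8). In those of 240 to 400 kb the values were 22.05 (20.6 to 23.6) and 14.2 (13.8 to 14.6), and in those of 440 to 800 kb 14.6 (12.8 to 16.6) and 7.53 (7.22 to 7.84). In 3D TADs over 800 kb they were 9.90 (8.01 to 12.1) and 3.45 (3.35 to 3.56). With the bins inside TADs of both lists weighted to the 3D TAD sizes of the stretch bins, their density was 14.7 per Mb, and the ratio of 2.85 became 1.40. Nearness to a TAD end also moved with the density. Within 2 bins of an end of the 3D TAD, stretch bins had 22.5 starts per Mb (21.5 to 23.5) and bins inside TADs of both lists 15.1 (14.7 to 15.4), and farther in, the values were 13.6 (12.1 to 15.2) and 4.52 (4.41 to 4.62).

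**Figure D3:**
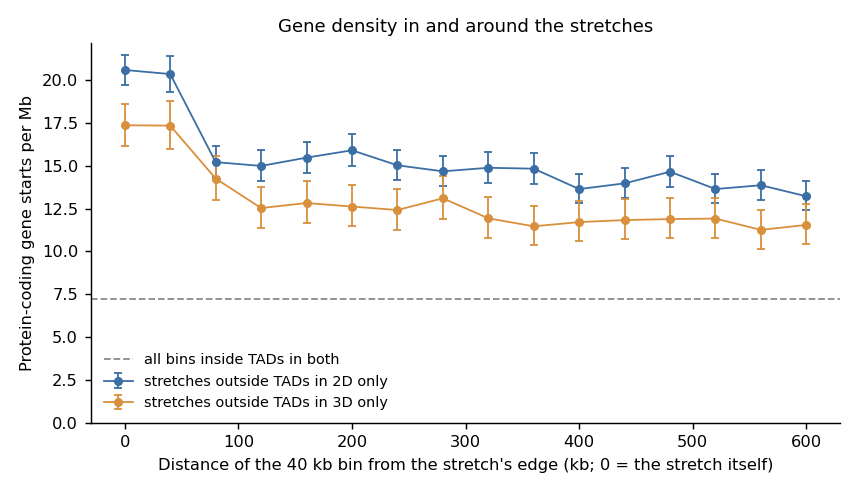
Protein-coding gene starts per Mb (vertical axis, with exact 95% Poisson intervals) in stretches (at 0) and in bins at growing distance from their edges (horizontal axis, kb), for stretches outside TADs only in 2D (blue) and only in 3D (orange). The blue curve falls from 20.6 in the stretches to 15.2 at 80 kb and 13.2 at 600 kb, above the 7.22 of all bins inside TADs of both lists (dashed line). The bins at a distance were not limited to sequence inside TADs.

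Other kinds of genes differed in how often they began in a stretch. Of the autosomal lincRNA genes, long RNAs between protein-coding genes that do not code for protein, 228 of 5198 (4.39%, interval 3.86 to 4.98%) began there, which is close to the 4.44% of bins. For pseudogenes the share was 5.36% (4.96 to 5.78%), for antisense RNA genes 8.73% (7.75 to 9.81%) and for snoRNA genes, whose RNAs guide the modification of ribosomal RNA and often lie in introns of other genes, 10.6% (9.13 to 12.3%). The protein-coding genes that began in a stretch had a median length of 17.9 kb (16.9 to 19.1), similar to the 18.2 kb (17.8 to 18.8) of genes that began inside TADs of both lists. Head-to-head pairs, in which 2 protein-coding genes start on opposite strands within 1000 bases and point away from each other, were more frequent. They took in 248 of the 2191 genes of the stretches (11.3%, interval 10.1 to 12.7%), against 5.93% (5.57 to 6.32%) of the genes that began inside TADs of both lists. Their share was 9.08% (8.01 to 10.3%) for genes outside TADs in both cultures and 8.24% (6.50 to 10.4%) for those outside TADs only in 3D, and both of these intervals overlapped that of the stretches. The groups were not matched for gene density, which was 20.6 starts per Mb in the stretches and 7.22 inside TADs of both lists.

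The stretches had 44.3% G and C bases and 11.05 CpG dinucleotides per kb, against 41.7% and 8.28 in bins inside TADs of both lists. Bins outside TADs only in 3D had 43.1% and 9.74, and those outside TADs in both cultures 43.3% and 9.88. The 2D TAD bins directly beside a stretch had 44.75% and 11.47. In 3D TADs of 120 to 200 kb, stretch bins had 44.48% and 11.32, below the 44.99% and 11.50 inside TADs of both lists. In each larger size class the stretch bins were higher in both. G and C stood at 44.82% against 44.73% at 240 to 400 kb and 41.92% against 40.02% over 800 kb. Repeats made up 31.0% of the bases of the stretches and 33.2% of those inside TADs of both lists. The core CTCF motif occurred 3.92 times per bin in the stretches, 3.06 times in bins outside TADs only in 3D, 3.14 times in bins outside TADs in both cultures and 2.09 times inside TADs of both lists. A motif made mostly of G and C is found more often in sequence rich in them, and the part that composition played in these counts was not tested. MboI sites, where the Hi-C enzyme cuts, numbered 98.0 per bin in the stretches and 99.5 inside TADs of both lists. Unknown bases occurred in 17 of the 2661 bins.

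Every autosome had stretches. Their share of the span was lowest on chromosome 1, with 57 stretches over 3.12%, and highest on chromosome 19, with 27 stretches over 6.75%, and the median was 4.23%. Chromosome 19, the shortest autosome, also had the highest density in the stretches, 39.0 gene starts per Mb. On each of the 19 autosomes the stretches were denser in gene starts than the bins inside TADs of both lists, and on each the sequence outside TADs only in 2D was longer than that outside TADs only in 3D. Across the 19 autosomes, the share of the span in stretches went with the gene density of the chromosome (Pearson's r = 0.72, Spearman's rho = 0.62), given as a description, since all chromosomes come from the same 2 maps.

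The longest stretch, of 480 kb, lay on chromosome 13 from 67000001 to 67480000 (mm10). It held 17 protein-coding gene starts, of which 12 had the symbol prefix Zfp of zinc finger genes, among them Zfp712, Zfp708, Zfp759, Zfp455 and Zfp458. Many proteins of this family carry a KRAB domain and repress transcription, often of transposable elements. Rsl1 and Rslcan18, which began in the same stretch, are also zinc finger genes but were not counted by that prefix, and Rsl1 is a repressor of sex-limited liver genes. In 2D the stretch lay between TADs of 120 kb on both sides, while in 3D 1 TAD of 960 kb, with 35 gene starts, ran across it. The second stretch in length, of 440 kb, lay on chromosome 14 from 45400001 to 45840000, and its 3 genes were Gnpnat1, an enzyme of the hexosamine pathway, Fermt2, which activates integrins, and Ddhd1, a phospholipase. In 3D it held 2 whole TADs, of 160 and 240 kb, and the first bin of a TAD of 960 kb. The other stretch of 440 kb, on chromosome 16 from 76560001 to 77000000, held 0 protein-coding gene starts and formed the end of a 3D TAD of 1400 kb with 3 of them. Next in length were 7 stretches of 400 kb, of which the 2 with the most gene starts are named and the others held 1 to 6. The first, on chromosome 4 from 129120001 to 129520000, held 14 gene starts, among them Hpca, a calcium sensor of neurons, Fndc5, the precursor of irisin, Yars, the transfer RNA synthetase for tyrosine, and Rbbp4, a histone-binding subunit of chromatin complexes. There the 3D list had 4 TADs of 160 to 280 kb, 2 of them whole. A stretch on chromosome 7 from 97320001 to 97720000 held 10 gene starts. They included Thrsp, a regulator of fat synthesis in liver, Ndufc2, a subunit of respiratory complex I, and Rsf1, a chromatin remodelling factor. Most of it was 1 TAD of 360 kb in 3D, the longest of those that lay wholly inside a stretch, with 8 of the gene starts.

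The stretch with the most genes lay on chromosome 19 from 8720001 to 8960000 and held 29 protein-coding gene starts in 240 kb. Slc3a2, the heavy chain of amino acid transporters, Nxf1, the exporter of messenger RNA, Polr2g, a subunit of RNA polymerase II, and Taf6l began there. In 2D it lay between TADs of 160 and 200 kb, and in 3D it was divided between a TAD of 120 kb, which it contained with all 15 gene starts, and the first 120 kb of a TAD of 320 kb. On chromosome 7 from 4680001 to 5040000, a stretch of 360 kb held 28 gene starts, among them Brsk1, a kinase, Rpl28, a protein of the large ribosomal subunit, and Ube2s, a ubiquitin-conjugating enzyme of mitosis. Its 3D TADs measured 120, 120 and 160 kb. A further pair lay close together on chromosome 19. From 5360001 to 5680000 there were 21 gene starts, among them Banf1, a protein that ties DNA to the nuclear envelope, Drap1 and Fosl1, and from 5880001 to 6120000 there were 19, among them Pola2, Capn1 and Syvn1. The last was identical to 1 3D TAD of 240 kb, and so was a stretch on chromosome 6 from 82920001 to 83160000, with 19 gene starts that included Loxl3, Htra2, Tlx2 and Pcgf1.

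Of the 3D TADs wholly inside a stretch, those next in size measured 320 kb. One, on chromosome 13 from 59440001 to 59760000, held 8 gene starts, among them Agtpbp1, an enzyme that shortens the tail of tubulin, and Golm1, a Golgi protein. Another, on chromosome 7 from 3200001 to 3520000, held 7, among them the calcium channel subunits Cacng7, Cacng8 and Cacng6. On chromosome 16 from 57600001 to 57920000 lay Cmss1 and Col8a1, and on chromosome 4 from 88040001 to 88360000 Focad alone. The longest 3D TAD that covered a stretch extended from 45080001 to 50360000 on chromosome 3 and measured 5280 kb. Its 3 gene starts, Pcdh10, Pabpc4l and Pcdh18, lay outside the 360 kb of stretch in it. The smallest covering TADs measured 120 kb. The one with the most genes, on chromosome 14 from 55560001 to 55680000, held 16 gene starts, of which 11 lay in the 80 kb of stretch. The TAD held the starts of Psme1 and Psme2, the activator subunits of the proteasome, Irf9, a factor of the interferon response, and Nedd8.

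**Figure D4:**
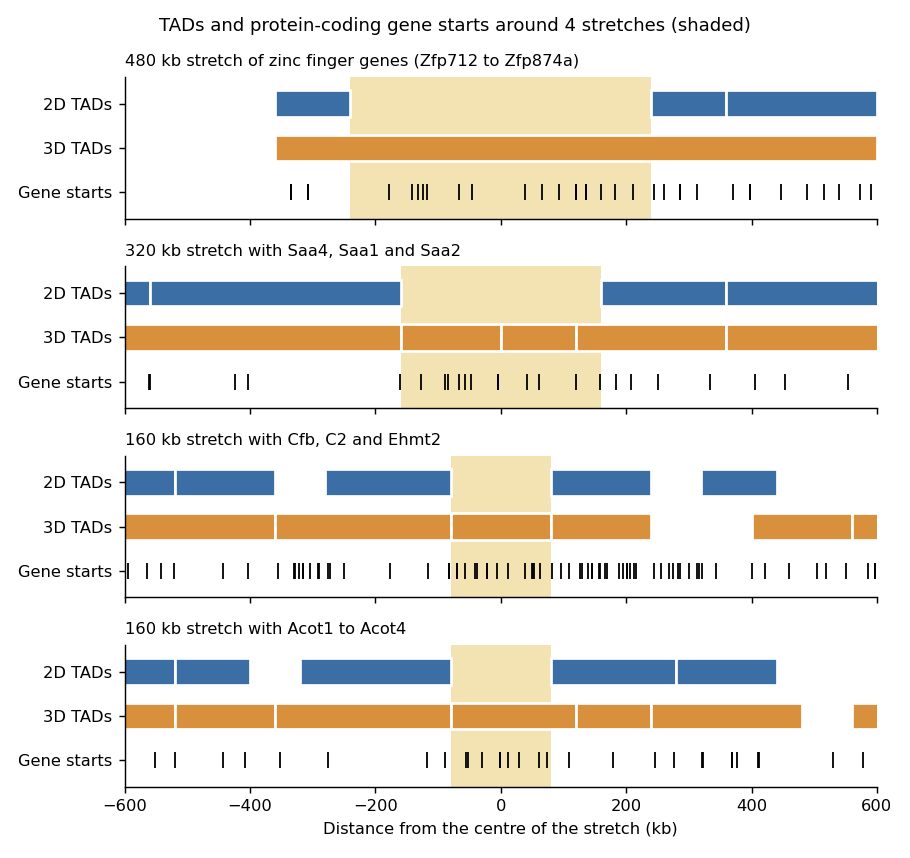
TADs of the 2D list (blue), TADs of the 3D list (orange) and protein-coding gene starts (ticks) within 600 kb of the centre of 4 stretches (shaded), with the distance from the centre in kb on the horizontal axis and white lines between adjoining TADs. The stretch of zinc finger genes lies within 1 3D TAD of 960 kb, that of Cfb and C2 equals 1 3D TAD of 160 kb, that of the Saa genes is divided among several 3D TADs and that of the Acot genes begins a 3D TAD of 200 kb.

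Liver genes and other groups were placed by their start. Over all 9 lists, 97 of 712 genes (13.6%, beside 10.6% of all autosomal protein-coding genes) began in 80 different stretches. The 3D TAD at their start measured 120 to 2760 kb, with a median of 200 kb. The share of each list is given beside the 10.6% of all autosomal protein-coding genes, with no test of the lists, which were drawn up with earlier results of these data known. The intervals allow neither for the number of lists and families nor for local gene density, so an interval above the 10.6% is a description. In the list of plasma proteins, which hepatocytes secrete, 15 of 93 genes (16.1%, interval 10.0 to 24.9%) began in a stretch. Serpinc1, which encodes antithrombin, began in a stretch of 80 kb on chromosome 1 at the end of a 3D TAD of 120 kb. The serum amyloid genes Saa4, Saa1 and Saa2, induced in the acute phase response, shared a stretch of 320 kb on chromosome 7 from 46640001 to 46960000 and a 3D TAD of 160 kb wholly inside it. Apob, the protein of very low density lipoproteins, was the only protein-coding gene start of its stretch on chromosome 12 from 7920001 to 8000000 and of its 3D TAD of 120 kb. Itih4 and Itih3, heavy chains of the inter-alpha-trypsin inhibitor, lay in 1 stretch of 80 kb in a 3D TAD of 280 kb. The others named by the rule were Cfi and Klkb1, proteases of complement and of the contact system, Azgp1, Agt, the precursor of angiotensin, and Vtn, the adhesion protein vitronectin. Cfb and C2, complement proteases singled out after their values were seen, lay in a stretch of 160 kb on chromosome 17 from 34840001 to 35000000 that equalled 1 3D TAD and held 14 gene starts.

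The list of sugar, amino acid and lipid metabolism had 22 of 102 genes (21.6%, interval 14.7 to 30.5%) in stretches, and its interval lay above the 10.6% of all genes. Ass1, argininosuccinate synthase of the urea cycle, was the only gene start of a stretch of 80 kb on chromosome 2 that lay between 2D TADs inside a 3D TAD of 800 kb. Slc25a15, the ornithine transporter of the urea cycle, and Lpin1 lay in stretches that equalled whole 3D TADs, of 120 and 160 kb. Tat, which breaks down tyrosine, Dgat2, which makes triglycerides, and Slc37a4 lay in stretches crossed by a 3D border. Khk, which phosphorylates fructose, Hal, which degrades histidine, Shmt1, of one-carbon metabolism, and Pygl, liver glycogen phosphorylase, lay in stretches at an end of a 3D TAD. The acyl-CoA thioesterase genes Acot2, Acot1, Acot4 and Acot3, of which the last 3 were named after their values were seen, filled 1 stretch of 160 kb on chromosome 12 from 83960001 to 84120000 with 5 other gene starts, 9 in all.

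For drug metabolism and conjugation the share was 11 of 118 genes (9.32%, interval 5.29 to 15.9%). The aldehyde oxidase genes Aox1 and Aox3 shared a stretch on chromosome 1 from 57960001 to 58120000 that held a whole 3D TAD of 120 kb. Ugt1a1 and Ugt1a6a, glucuronosyltransferases whose transcripts share their last exons, began in 1 stretch of 240 kb but in different 3D TADs, of 160 and 200 kb. Cyp27a1, of bile acid synthesis, and Cyp3a13 lay at ends of 3D TADs of 280 and 360 kb. Akr1d1, a reductase of bile acid synthesis, was alone in its stretch inside a 3D TAD of 640 kb. Cyp4v3, Gsta4, Gsta2 and Gstz1 completed the list. Liver transporters had 6 of 49 genes in stretches (12.2%, interval 5.73 to 24.2%), namely Slc2a9, a urate transporter, Abcc6, Atp7b, the copper transporter, Slc22a5, the carnitine transporter, Slc29a1 and Abcc2, the export pump of the canalicular membrane. Of these, Atp7b and Slc29a1 lay in stretches that equalled a 3D TAD of 160 kb. Liver transcription factors had 6 of 62 (9.68%, interval 4.51 to 19.5%). They included Nr1h3, the oxysterol receptor LXR alpha, Klf15, Yap1, the coactivator of Hippo signalling, Rara, a retinoic acid receptor, and Hhex. Yap1 was the only gene start of a 3D TAD of 120 kb wholly inside a stretch. None of Hnf4a, Cebpa and Foxa2, named here for their role in hepatocytes and not by the rule, began in a stretch.

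The groups linked to the culture and to the arrest are given in the same way, with no test between them. The intervals of the matrix, junction and G1/S lists overlapped each other and held the 10.6% of all genes. Of matrix genes and matrix receptors, 5 of 74 (6.76%, interval 2.92 to 14.9%) began in stretches, namely Dag1, dystroglycan, which binds laminin, Itgb3 and Itgb4, integrin chains, Fermt2 and Mmp14, a membrane-bound matrix protease. Itgb3 was the only gene start of its 3D TAD of 120 kb. Of genes of cell junctions and polarity, 2 of 59 (3.39%, interval 0.935 to 11.5%) did, and they were Krt8 and Krt18, the keratin pair of hepatocytes, neighbours in 1 stretch of 160 kb on chromosome 15 from 102000001 to 102160000. Of genes of chromatin architecture and the lamina, 16 of 63 (25.4%, interval 16.3 to 37.3%) began in stretches, an interval above the 10.6% of all genes. They included Lbr, Sun1, Tmpo, Lemd3 and Ankle2, proteins of the nuclear envelope, Mau2, a loader of cohesin, Smc4, of condensin, Suv39h2 and Ehmt1, histone methyltransferases, Cbx3, which binds methylated histone H3, Med1, of Mediator, and Mki67. The stretches of Smc4 and Ehmt1 were identical to 3D TADs of 160 and 120 kb. Suv39h2 lay in a stretch of 80 kb that made up 5.13% of a 3D TAD of 1560 kb. Of genes of G1/S control and DNA replication, 15 of 93 (16.1%, interval 10.0 to 24.9%) did. Among them were Mcm6 and Mcm9, helicase subunits, Orc3, of the origin recognition complex, Rpa2 and Rpa1, which bind single-stranded DNA, Pole, a replicative polymerase, Tyms, thymidylate synthase, Gins4, Atrip, Tfdp2, Cdk4, which drives passage through G1, and Trp53, the tumour suppressor. Mcm9 began in 1 of the stretches of 40 kb, at an end of the 3D TAD of 2760 kb, and Trp53 in a stretch of 80 kb with 7 gene starts at the end of a 3D TAD of 520 kb with 23. The lists hold no expression values, so these are positions only.

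**Figure D5:**
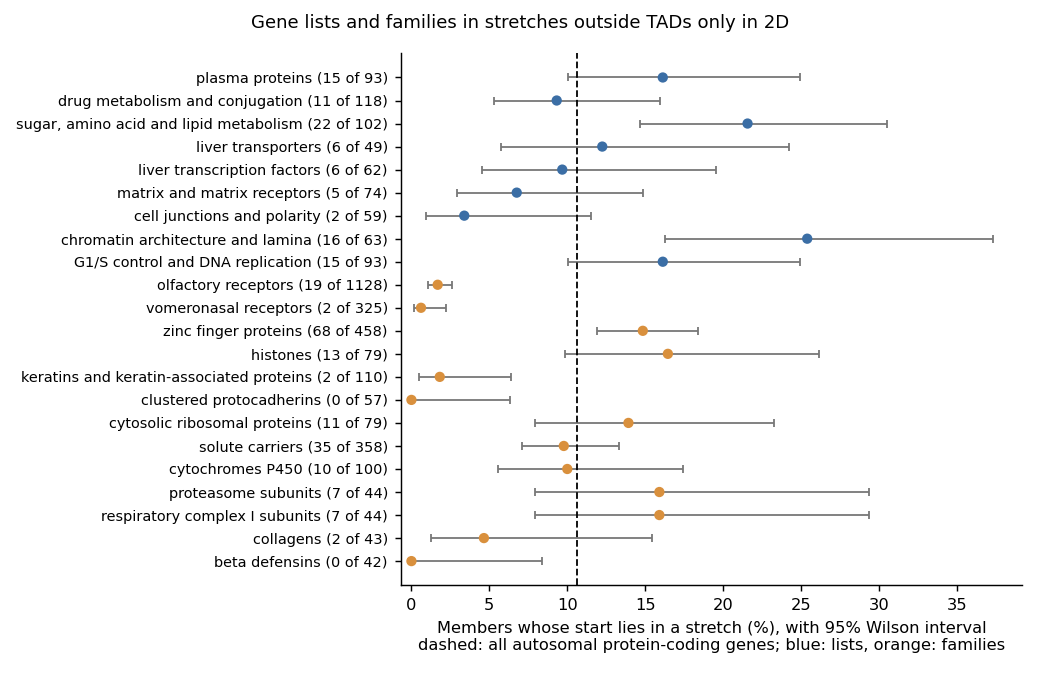
Share of each gene list (blue) and gene family (orange) of at least 40 members whose start lies in a stretch (horizontal axis, %, with 95% Wilson intervals), with counts beside the names and the 10.6% of all autosomal protein-coding genes as a dashed line. Chromatin and lamina genes are highest at 25.4%, olfactory and vomeronasal receptors stand at 1.68% and 0.615%, and clustered protocadherins and beta defensins at 0.

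Gene families were placed very unevenly. Olfactory receptor genes, which stand in large clusters, had 19 of 1128 members in stretches (1.68%, interval 1.08 to 2.62%), among them Olfr433 and Olfr432, and vomeronasal receptor genes had 2 of 325 (0.615%), Vmn2r3 and Vmn2r49. Keratins and keratin-associated proteins had 2 of 110, which were Krt8 and Krt18. None of the 39 Hox genes, of the 57 clustered protocadherin genes and of the 42 beta defensin genes began in a stretch, and 38, 54 and 34 of them lay inside TADs of both lists. So did 15304 of all 20705 protein-coding genes. Zinc finger genes, taken by the symbol prefixes Zfp, Zscan, Zkscan and Zbtb, had 68 of 458 (14.8%, interval 11.9 to 18.4%), in 35 stretches, with Zbtb37, Zfp341, Zfp335 and Zfp512b first in genome order. A further 88 of the 458 zinc finger genes lay outside TADs in both cultures, as did 72 of the 325 vomeronasal receptor genes. Of all 20705 protein-coding genes, 2433 began there. Histone genes had 13 of 79 (16.5%, interval 9.88 to 26.1%), 9 of them from the Hist1 cluster. A further 27 of the 79 lay outside TADs only in 3D, where 777 of all 20705 protein-coding genes began. The intervals of cytosolic ribosomal proteins (11 of 79, 13.9%), proteasome subunits (7 of 44), respiratory complex I (7 of 44), solute carriers (35 of 358, 9.78%) and cytochromes P450 (10 of 100) all held the 10.6% of all genes. Collagens had 2 of 43, Col8a1 and Col17a1, and their interval of 1.28 to 15.5% held it too. C-type lectins of the natural killer complex had 2 of 26, Klra17 and Klra2, with an interval of 2.14 to 24.1% that held the 10.6%. A further 18 of the 26 lay outside TADs in both cultures, beside 2433 of all 20705 protein-coding genes. The genes of a cluster share a stretch or a TAD and are not independent of each other, so the intervals of clustered families are too narrow.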

How the data were processed

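Chromatin contacts of AML12 cells in 2D and 3D culture (2 replicates each, 4 samples) were measured by in situ Hi-C with MboI. The deposited values are the first and last base of each TAD, with no score and no depth. According to the methods, the authors mapped reads iteratively to mm10 with Bowtie2 (version 2.2.9, also in the submitters' processing notes), filtered pairs by mapping quality, combined the replicates of a culture, normalized the contact matrices at 40 kb with ICE, brought the total contacts of a chromosome to one level in 2D and 3D, and called TADs with Armatus at a gamma of 0.8.

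Bins, stretches and their covering TADs were computed here with pandas 2.3.3, scipy 1.17.1 and numpy 2.4.6, run in Python 3.11.15, and plotted with matplotlib 3.10.9. On simulated lists, 7 of 7 measures returned the known values. Genes were taken from GENCODE release M21 and base composition, soft-masked repeats, MboI sites and motifs from RefSeq GRCm38.p6, the build that mm10 names. A gene was placed by its 5' end. Coordinates are 1-based.

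The members and the gene lists were chosen with earlier results of these data known, and the comparisons by TAD size, by distance from a TAD end and TAD by TAD were added after values were seen. Named by rule were the 5 longest stretches, the 5 with the most protein-coding gene starts, the 5 longest 3D TADs wholly inside a stretch, the longest and the shortest covering 3D TAD, the chromosomes of lowest and highest share, up to 15 genes a region, up to 12 genes a list in genome order and up to 4 genes a family, with ties going to more gene starts. Promoter windows with the CTCF core motif were taken from list genes outside chromosome 18. Some genes that this rule names are not reported here. Alternatives were the chromosomes and span used, the smallest stretch and 3D TAD, unknown bases, how and which genes were counted, and the weighting of 3D TADs.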

Additional observations from a re-analysis of the deposited data

How the results depend on the processing

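Of 47 values under the alternatives, 31 were the same, 16 moved and 0 changed direction. A count was the same within 1.5 times, and a share, density or median within its 95% interval. The stretches exceeded the bins inside TADs of both lists in gene density in all 7 alternatives in which it was computed, by 11.9 to 19.7 per Mb, against 13.4. The largest 2 differences came with gene bodies and with all annotated genes, where the scale of the count is larger. With all annotated genes, 38.4 per Mb in the stretches stood against 18.9 inside TADs of both lists. The weighting to 3D TAD size given above was not among these alternatives and left a smaller gap. It put the bins inside TADs of both lists at 14.7 per Mb, against 20.6 in the stretches, a ratio of 1.40 in place of 2.85. The span of the 2D list alone and leaving out bins with unknown bases moved no value. With chromosome X included, the stretches took up 4.81% of the span with 18.99 starts per Mb, a difference of 11.9. With stretches of at least 80 kb, 74.3% filled a 2D interval. With 3D TADs of at least 200 kb, which are fewer and larger by construction, the stretches took up 3.07% of the span, the median covering TAD was 320 kb, the density was 19.03 per Mb, 61.9% filled a 2D interval, 75.8% held a gene start and 14.2% lay between 2D TADs inside 1 3D TAD. With any overlap of a gene body counted, the density was 37.1 per Mb, the difference 19.7 and the share of stretches with a gene 93.8%, and with all annotated genes they were 38.4, 19.5 and 91.3%. Both of the last 2 settings raise the count by construction. With gene bodies, a gene counts once in each 40 kb bin that it touches, and with all annotated genes, further gene types count. For chromosome X the cause was not tested. No paired analysis was possible because TADs were called on maps that pooled both replicates, and leaving out each replicate was not possible for the same reason. Pooling and the missing depth of single TADs limit all of these values.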

Other observations

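Chromosome X was outside the autosomal stretches. By the same rule it had 107 stretches over 16.8 Mb, 10.0% of its span, above the 3.12 to 6.75% of the single autosomes. Their density was 8.83 protein-coding gene starts per Mb (95% exact Poisson interval 7.47 to 10.4), against 4.42 (4.05 to 4.81) in its bins inside TADs of both lists, and 61 of the 107 held a gene start. The median length was 120 kb and the longest measured 720 kb. On this chromosome the sequence outside TADs only in 3D was denser, at 12.5 per Mb (9.96 to 15.5), with an interval that overlaps that of the stretches. These values were not tested.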
